A study of Mus musculus with 16 samples.

Results

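The transcripts described here are 8 RNAs that are not translated into a known protein or are not known to act through one: Rmrp, Malat1, Neat1, Meg3, Miat, Rian, Snhg11 and Kcnq1ot1. They were chosen by symbol, as RNAs not expected on translating ribosomes, and make up 8 of the 17097 genes with deposited values. They were compared between RNA captured with tagged ribosomes and RNA of the whole lysate, and between CNO and vehicle.

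The study captured ribosomes of striatal astrocytes through a hemagglutinin tag (immunoprecipitate, IP) and also purified RNA from the cleared lysate of the same striatum (input). All mice were male C57BL/6J, labelled wild-type and aged 63 days, and the striatum was taken 2 h after the injection. CNO mice received clozapine N-oxide at 1 mg/kg, a ligand of designer receptors, and vehicle mice received vehicle. There were 4 IP libraries of CNO mice, 4 IP libraries of vehicle mice, 4 input libraries of CNO mice and 4 input libraries of vehicle mice, numbered 2 to 5 in their titles. Both libraries of a mouse share a code, and 8 codes occur in the titles, whereas the series text speaks of 4 mice. Each code was taken as 1 mouse, and should some codes be the same animal, p-values would reflect spread that is partly technical. The title of the series gives Gi signalling of astrocytes as the subject. The labels name neither the receptor, nor the virus or strain that carried it, nor the protein that carried the tag, and CNO without the receptor was not analysed here.

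These RNAs work without being decoded. Rmrp is the RNA subunit of RNase MRP, an enzyme of the nucleolus that cuts the precursor of ribosomal RNA. Malat1 is kept in nuclear speckles, the stores of splicing factors, and Neat1 is the scaffold of paraspeckles, nuclear bodies that hold RNA-binding proteins. Meg3 and Rian are maternally expressed RNAs of the imprinted Dlk1-Dio3 region, and Rian is the host of clusters of small nucleolar RNAs and microRNAs. Kcnq1ot1 is a paternally expressed antisense RNA that silences imprinted neighbours of Kcnq1. Miat, also called Gomafu, is a nuclear RNA of neurons that binds splicing factors, and Snhg11 is a spliced small nucleolar RNA host transcript of the brain.

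Rmrp is the member with the widest gap between IP and input and the only short, highly structured RNA among the members. Its RNA is printed here because its position bears on which reads can be counted as Rmrp. In GENCODE vM21 (GRCm38, the assembly also called mm10) the 271-base ribozyme entry of Rmrp lies at chr4:43492788-43493058 on the minus strand. Capitals mark the 124 bases, positions 36 to 159 of the RNA counted from its 5′ end, that also lie in an exon of Ccdc107 on the opposite strand.
Rmrp: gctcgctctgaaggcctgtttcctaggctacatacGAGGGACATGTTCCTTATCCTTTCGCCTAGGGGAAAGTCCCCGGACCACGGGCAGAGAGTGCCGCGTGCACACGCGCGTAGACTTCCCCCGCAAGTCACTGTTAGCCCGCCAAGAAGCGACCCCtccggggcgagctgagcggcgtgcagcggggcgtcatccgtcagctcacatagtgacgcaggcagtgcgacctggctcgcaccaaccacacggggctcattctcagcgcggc
Since no source used here gives the strand setting of the authors' counting, reads in the capital letters could in principle have been counted for either gene, or dropped as ambiguous. Ccdc107 itself was measured at a mean of 21.0 CPM in CNO mice and 22.9 CPM in vehicle mice, averaged over IP and input. Its log2 difference between IP and input was -0.99 (SE 0.07) in CNO mice and -1.06 (SE 0.06) in vehicle mice.

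The other members are long transcripts. On GRCm38, Malat1 lies at chr19:5795690-5802672 and Neat1 beside it at chr19:5824708-5845478, both on the minus strand and each annotated as 1 block of exon. Meg3 at chr12:109541001-109571726 and Rian at chr12:109603940-109661716 lie on the plus strand with 8 and 19 separate blocks of exons. Miat lies at chr5:112213228-112229395 on the minus strand and Snhg11 at chr2:158375638-158386145 on the plus strand. Snhg11 is typed as protein-coding in GENCODE vM21 and as a long non-coding RNA in RefSeq. Kcnq1ot1 lies at chr7:143203458-143296549 on the minus strand and shares 121 exonic bases with Kcnq1 on the opposite strand. Kcnq1 had a mean of 0.21 CPM over the vehicle libraries, against 45.5 to 67.9 CPM for Kcnq1ot1.

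Values are the authors' log2 CPM, reads scaled to a common library size on a log2 scale, and CPM in this text is that value without the log. The libraries held 52.1 to 61.5 M reads (M, mega) in IP and 32.8 to 40.3 M in input. The lowest count of any member in any library was 624 reads. Since reads are not independent molecules here, the error of counting was not measured. All 8 members passed the filter on low values. Together the members took 0.292 to 0.442% of the reads of an IP library and 0.998 to 1.349% of an input library. As a check of the capture, 10 of 10 astrocyte markers were higher in IP than in input in both CNO and vehicle mice, whereas 8 of 8 microglia markers, 7 of 7 endothelial markers and 10 of 10 medium spiny neuron markers were lower. Of 12 pan-neuronal markers, 6 were lower and 1 higher in CNO mice, and 6 were lower and 3 higher in vehicle mice. In the same fits 40.0% of the genes tested in CNO mice and 37.6% in vehicle mice were higher in IP. Interneuron markers (7 of 8) and ependymal markers (5 of 5) were also higher in IP in both sets of mice, as were 7 of 8 oligodendrocyte markers in CNO mice and 5 of 8 in vehicle mice, so the IP held more than astrocyte RNA. In tissue RNA, fewer cells of a type and less RNA per cell cannot be told apart.

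**Figure D1:**
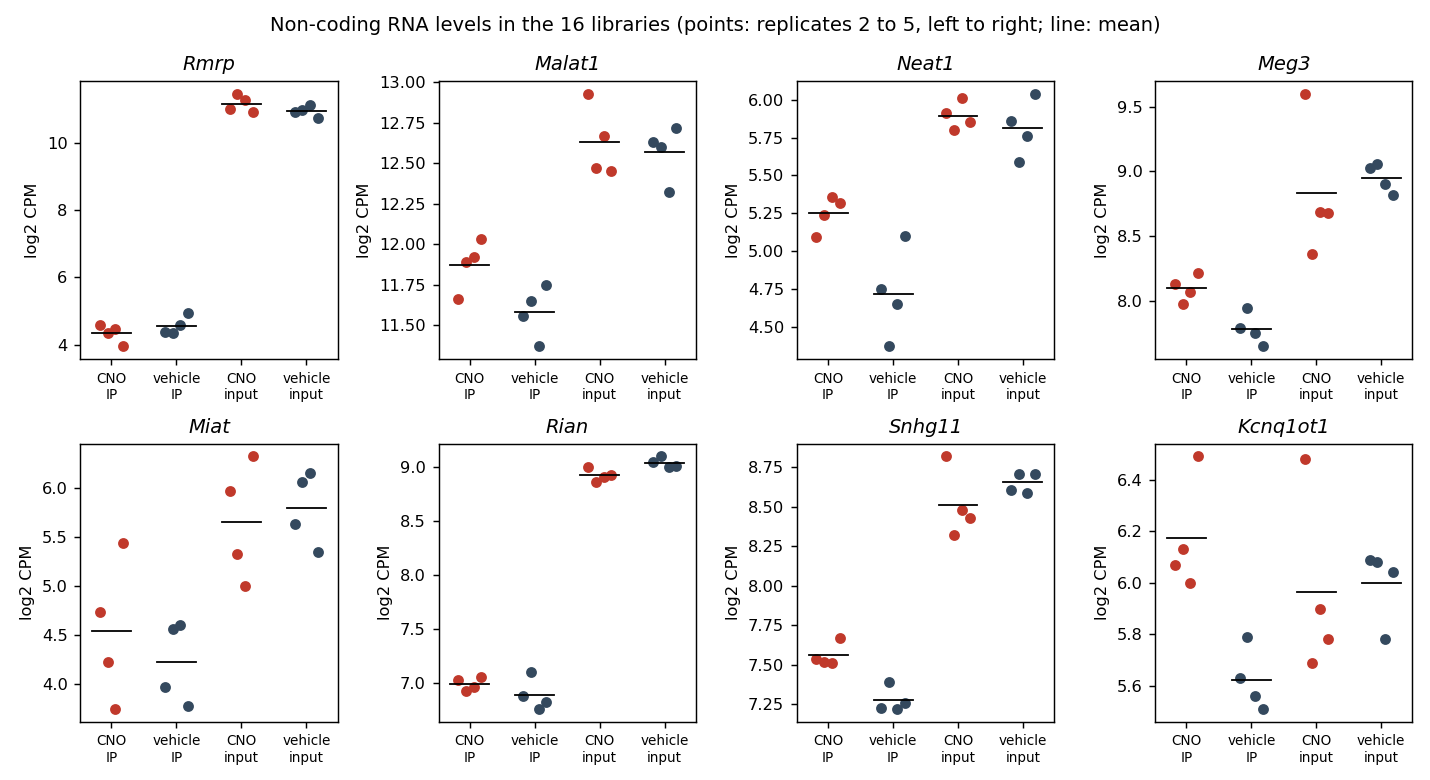
Level of each non-coding RNA (log2 CPM, one panel each with its own axis) in IP of CNO and vehicle mice and in input of CNO and vehicle mice. Points are replicates 2 to 5 and lines are group means. Rmrp stands at 3.95 to 4.95 in IP and 10.74 to 11.46 in input, and Kcnq1ot1 is the member whose IP and input ranges overlap most.

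In IP against input, most members were lower in IP, by amounts that ranged widely. The IP was enriched for astrocyte RNA, and input holds all cell types. Less RNA on ribosomes and expression in other cells therefore cannot be told apart here. Markers of medium spiny neurons, which are messenger RNAs, had median log2 differences of -1.57 in CNO mice and -1.63 in vehicle mice. Pan-neuronal markers, also messenger RNAs, had a median of -0.18 in both. The log2 difference (IP minus input) was -6.83 for Rmrp in CNO mice and -6.38 in vehicle mice, and lay between -1.93 and 0.21 for the 7 long RNAs in CNO mice and between -2.15 and -0.37 in vehicle mice. These values are a description, because the members were listed for this contrast, and the counts of calls that follow are a description too. By limma with Benjamini-Hochberg adjustment over all genes, 7 of 8 members stood past the threshold on the lower side in CNO mice and 8 of 8 in vehicle mice. Of all genes tested, 35.1% did so in CNO mice and 37.3% in vehicle mice. The IP libraries lay wholly below the input libraries for 6 of 8 members in CNO mice, against 32.6% of all genes, and for 7 of 8 members in vehicle mice, against 34.5% of all genes. Nothing is read from these shares, since the list was drawn up with the contrast in view. The scale between IP and input depends on how libraries are matched. With upper quartile scaling the median over all genes moved by -0.22 in CNO mice and -0.16 in vehicle mice, and with plain read totals by -0.31 and -0.27. The share of called genes that were higher in IP was 53.2% in CNO mice and 50.2% in vehicle mice, and became 39.7% and 40.5% with upper quartile scaling and 34.8% and 34.1% with plain totals. Each member moved with these shifts, and Kcnq1ot1 in CNO mice then changed sign.

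Rmrp was the member with the lowest level in IP relative to input. It stood at 24.3, 20.3, 22.0 and 15.5 CPM in CNO IP, against 2065, 2817, 2455 and 1941 CPM in CNO input. In vehicle mice it stood at 20.6, 20.2, 24 and 30.8 CPM in IP, against 1926, 2022, 2244 and 1705 CPM in input. No IP library came near any input library. Within single mice the level in IP was 0.719 to 1.18% of that in input in the CNO group and 1.00 to 1.81% in the vehicle group, the highest being vehicle replicate 5. By the group means this was 113-fold lower in IP in CNO mice and 83.4-fold lower in vehicle mice. Among all genes tested, Rmrp held rank 2 of 15801 counted from the lowest difference in CNO mice and rank 4 of 15903 in vehicle mice.

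Most RNAs of the list of other structured non-coding RNAs had the same direction. Of 8 tested, 7 passed as lower in IP and 0 as higher, in CNO and in vehicle mice alike, with a median log2 difference of -3.89 in CNO mice and -3.35 in vehicle mice. Over the IP libraries alone only 4 of the 8 passed the filter on low values, and Terc was not among them. The others passed here through their level in input, which by itself favours a lower call. These counts and medians are therefore a description. The median over all genes tested was 0.04 in CNO mice and 0.00 in vehicle mice. Rpph1, the RNA of the related enzyme RNase P, which trims transfer RNA precursors, had -4.47 (SE 0.17) in CNO mice and -4.30 (SE 0.09) in vehicle mice. Terc, the template RNA of telomerase, had -5.78 (SE 0.86) in CNO mice and -5.46 (SE 0.35) in vehicle mice at about 1 CPM. Scarna2, a guide RNA of Cajal bodies, had -2.03 in both sets of mice (SE 0.17 in CNO mice, 0.12 in vehicle mice). The exception was Rn45s, the long precursor of ribosomal RNA, at 0.07 (SE 0.11) in CNO mice and 0.12 (SE 0.16) in vehicle mice. The messenger RNAs of proteins of RNase MRP and RNase P did not have this gap. In IP 7 of 11 were lower and 2 higher in CNO mice, 6 were lower and 1 higher in vehicle mice, and their medians were -0.32 and -0.33. The lowest of them was Pop5, a shared subunit, at -1.39 in both (SE 0.07 in CNO mice, 0.08 in vehicle mice).

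**Figure D2:**
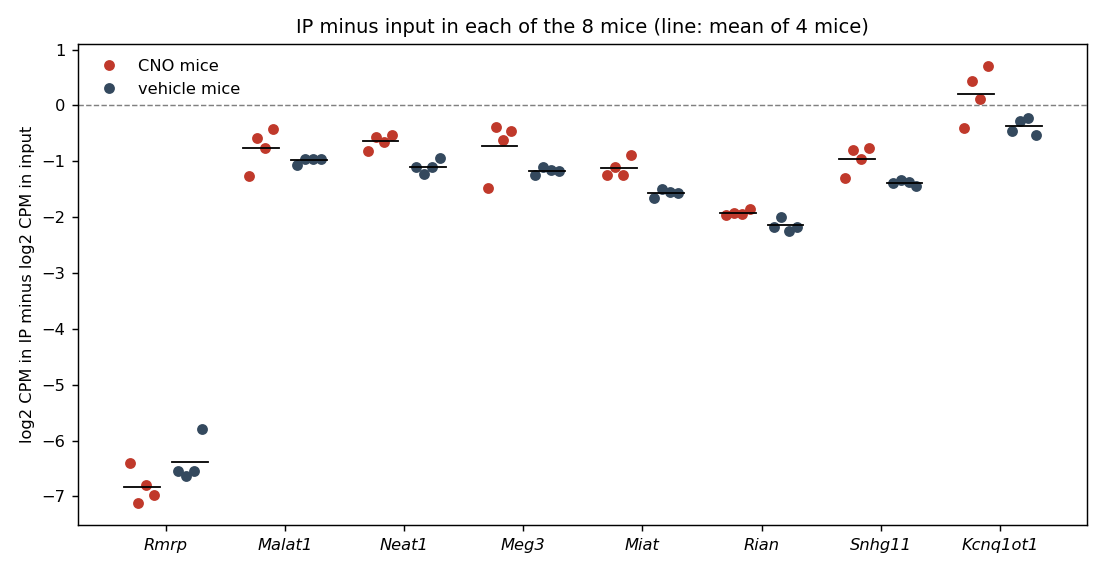
IP minus input (log2 CPM) of each non-coding RNA in each mouse, CNO mice left of vehicle mice, with lines at the mean of 4 mice. Rmrp lies between -7.12 and -5.79, Rian between -2.24 and -1.86, and Kcnq1ot1 is the only member with mice above 0, namely 3 of the 4 CNO mice.

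The nuclear body RNAs Malat1 and Neat1 kept a larger part of their input level in IP. Within mice Malat1 in IP was 41.6 to 74.7% of input in CNO mice and 47.8 to 51.9% in vehicle mice. Malat1, the most abundant member, stood at 3240, 3800, 3863 and 4194 CPM in CNO IP, against 7795, 5668, 6535 and 5611 CPM in CNO input. In vehicle mice it stood at 3030, 3222, 2646 and 3455 CPM in IP, against 6333, 6214, 5111 and 6738 CPM in input. The ranges did not overlap, and the log2 difference was -0.76 (SE 0.12) in CNO mice and -0.98 (SE 0.11) in vehicle mice. Neat1 was much scarcer, at 34.1, 37.7, 41.2 and 40.0 CPM in CNO IP against 60.1, 55.7, 64.4 and 57.8 CPM in CNO input. In vehicle mice Neat1 stood at 27.0, 20.7, 25.1 and 34.2 CPM in IP against 58.0, 48.3, 54.0 and 65.6 CPM in input. Its log2 difference was -0.64 (SE 0.07) in CNO mice and -1.09 (SE 0.15) in vehicle mice, again without overlap of IP and input.

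The members of the imprinted region on chromosome 12 differed from each other. Rian stood at 131, 122, 125 and 134 CPM in CNO IP, against 512, 464, 481 and 486 CPM in CNO input. In vehicle mice it stood at 117, 137, 108 and 114 CPM in IP, against 529, 550, 510 and 517 CPM in input. Within a mouse its IP level was 25.6 to 27.5% of input in CNO mice and 21.2 to 24.9% in vehicle mice. Meg3, transcribed from the same strand upstream of Rian, stood at 280, 253, 268 and 298 CPM in CNO IP against 774, 328, 413 and 409 CPM in CNO input. In vehicle mice Meg3 stood at 221, 248, 216 and 201 CPM in IP against 524, 533, 479 and 453 CPM in input. Its IP level was 36.2 to 77.0% of input in CNO mice and 42.2 to 46.5% in vehicle mice. The ratio of Rian was below that of Meg3 in every mouse, a comparison within libraries that does not depend on their scaling. Mirg, a further non-coding RNA of the region, had log2 differences of -0.76 (SE 0.12) in CNO mice and -1.05 (SE 0.09) in vehicle mice.

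Within Rian, GENCODE vM21 annotates 18 small RNA genes on the same strand, of which 7 have values in the files (a list drawn up after the values of Rian were seen). Their levels were low, at a mean of 0.243 to 0.715 CPM in vehicle mice, and their IP minus input differences there ran between -1.48 and 0.46, above that of Rian. AF357359, a small nucleolar RNA gene that RefSeq but not that annotation places inside Rian, was more abundant, at a mean of 11.7 CPM in CNO mice and 12.3 CPM in vehicle mice. Its log2 difference was -2.20 (SE 0.10) in CNO mice and -2.42 (SE 0.12) in vehicle mice, beside -1.93 (SE 0.05) and -2.15 (SE 0.07) for Rian. It was looked up after its level was seen to follow that of Rian over the 16 libraries, as did the levels of other genes given below. How reads inside these genes were divided between them and Rian is not given in the sources used here.

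Miat, Snhg11 and Kcnq1ot1 spanned the remaining range. Snhg11 stood at 186, 183, 183 and 203 CPM in CNO IP against 453, 320, 356 and 345 CPM in CNO input, and its log2 difference was -0.95 (SE 0.10). In vehicle mice Snhg11 stood at 150, 167, 150 and 153 CPM in IP against 390, 419, 386 and 418 CPM in input, a log2 difference of -1.38 (SE 0.05). Other host transcripts of small nucleolar RNAs were lower too: 14 of 15 passed as lower in CNO mice (median -1.63) and 13 of 14 in vehicle mice (median -1.68, with 1 higher), with Snhg8 at -2.77 (SE 0.11) in CNO mice and -2.88 (SE 0.08) in vehicle mice. Over the IP libraries alone 14 of the 15 passed the filter on low values. Kcnq1ot1 stood at 67.3, 69.8, 64.0 and 89.7 CPM in CNO IP against 89.5, 51.7, 59.5 and 54.8 CPM in CNO input. In vehicle mice Kcnq1ot1 stood at 49.4, 55.4, 47.1 and 45.5 CPM in IP against 67.9, 67.4, 54.9 and 65.8 CPM in input. Its IP and input ranges overlapped in both sets of mice. The log2 difference of Kcnq1ot1 was 0.21 (SE 0.18) in CNO mice, -0.02 with upper quartile scaling and -0.10 with plain totals, and -0.37 (SE 0.08) in vehicle mice.

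Miat was the most variable member between mice. It stood at 26.5, 18.6, 13.4 and 43.5 CPM in CNO IP, against 62.7, 40.1, 31.9 and 80.0 CPM in CNO input. In vehicle mice it stood at 15.7, 23.6, 24.3 and 13.6 CPM in IP, against 49.6, 66.8, 71.0 and 40.4 CPM in input. The mice kept 1 order: a mouse high in input was high in IP, in CNO and in vehicle mice alike. The SD of log2 CPM between CNO mice was 0.73 in IP and 0.60 in input, while the SD of the within-mouse difference was 0.17. Between vehicle mice these SDs were 0.42, 0.38 and 0.07. The log2 difference of Miat was -1.12 (SE 0.41) in CNO mice and -1.57 (SE 0.24) in vehicle mice, where the SE is that of a fit without the mouse.

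In CNO mice the level of Miat moved with markers of cortical excitatory neurons, a cell type outside the striatum that a dissection can include. The 4 markers given (Slc17a7, Neurod6, Tbr1 and Fezf2) were chosen after the values of Miat were seen. Their summed level was 95.3, 62, 37.9 and 357 CPM in CNO IP and 152, 126, 45.7 and 406 CPM in CNO input, in the same order of mice as Miat. It was 86.2, 110, 184 and 100 CPM in vehicle IP and 101, 177, 339 and 107 CPM in vehicle input, where the order of the mice was not that of Miat throughout. None of the markers was at 0 in any group. The part of these cells in the level of Miat was not tested.

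**Figure D3:**
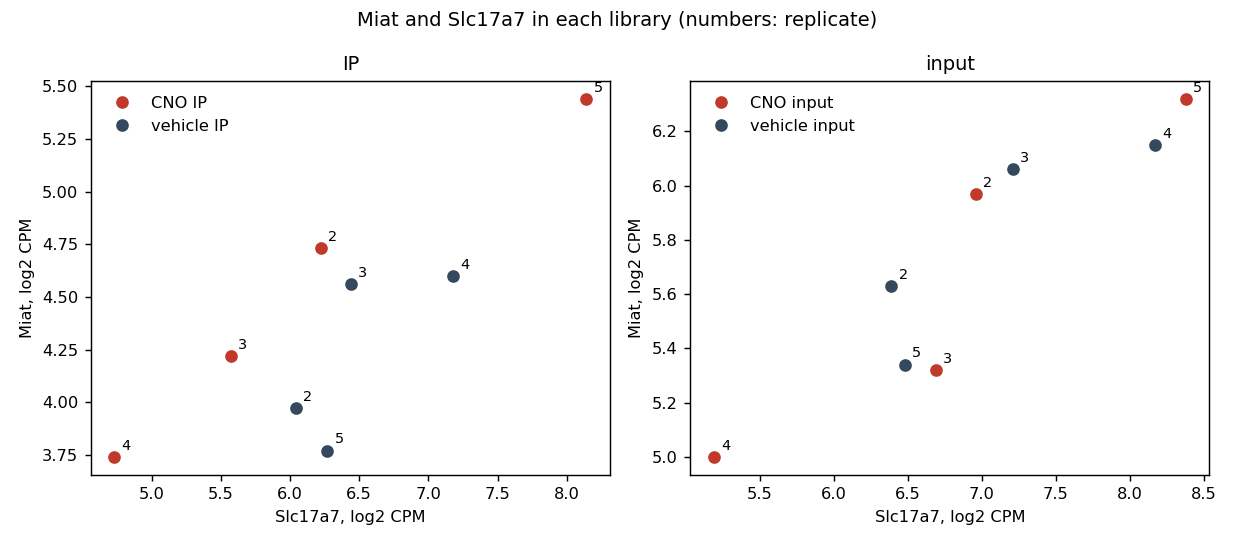
Miat against Slc17a7, the vesicular glutamate transporter of cortical excitatory neurons (log2 CPM both), in the IP libraries (left) and the input libraries (right), with replicate numbers beside the points. CNO replicate 5 is the highest point and CNO replicate 4 the lowest on the Slc17a7 axis in both panels, at 8.14 and 4.73 in IP and 8.38 and 5.19 in input.

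Levels of different genes are compared here per kilobase of annotated exon, all exons of a gene joined. That length was 20.771 kb for Neat1, 93.092 kb for Kcnq1ot1 and 281 bases for Rmrp, whose longer entry was used. Where a shorter transcript prevails the value would be higher, so the order rests on these lengths. In CNO input Rmrp led at 8254 ± 1416 CPM per kb, followed by Malat1 at 917 ± 146, Snhg11 at 43.3 ± 6.83, Meg3 at 26.6 ± 11 and Rian at 26.6 ± 1.07 (SD, n = 4 each). Miat at 5.78 ± 2.35, Neat1 at 2.87 ± 0.179 and Kcnq1ot1 at 0.686 ± 0.186 CPM per kb followed. In vehicle input the levels were 7025 ± 794 for Rmrp, 873 ± 99.7 for Malat1, 47.3 ± 2.09 for Snhg11, 28.9 ± 0.943 for Rian and 27.5 ± 2.09 for Meg3. There too Miat (6.13 ± 1.55), Neat1 (2.72 ± 0.35) and Kcnq1ot1 (0.688 ± 0.0657) were the lowest. Rian and Meg3 overlapped in both inputs and Snhg11 and Meg3 in CNO input, whereas the other neighbours did not overlap.

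In IP the order differed at the top. Malat1 led at 540 ± 56.7 CPM per kb in CNO IP and 442 ± 49.0 in vehicle IP, and Rmrp came after it at 73.0 ± 13.3 and 85.1 ± 17.5. Snhg11 (22.1 ± 1.13 in CNO IP, 18.2 ± 0.987 in vehicle IP), Meg3 (15.2 ± 1.06 and 12.2 ± 1.08) and Rian (7.01 ± 0.293 and 6.53 ± 0.684) followed without overlap between neighbours. Miat (2.74 ± 1.41 and 2.08 ± 0.585) and Neat1 (1.84 ± 0.151 and 1.29 ± 0.272) overlapped in both IP groups. Kcnq1ot1 was lowest at 0.781 ± 0.124 CPM per kb in CNO IP and 0.53 ± 0.0469 in vehicle IP.

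The annotation classes give the setting of these values, and differences between classes were not tested. Leaving the members out, 300 of 532 long non-coding genes were called lower and 45 higher in CNO mice (median -0.71), and 308 of 558 lower and 74 higher in vehicle mice (median -0.70). Small non-coding genes had medians of -1.23 (72 of 116 lower, 5 higher) in CNO mice and -1.53 (102 of 143 lower, 4 higher) in vehicle mice. Over the IP libraries alone only 92 small non-coding genes passed the filter. Some therefore passed here through input, which by itself favours a lower call. Protein-coding genes had medians of 0.08 (4814 of 14284 lower, 5994 higher) in CNO mice and 0.04 (5130 of 14323 lower, 5647 higher) in vehicle mice. All members but Kcnq1ot1 stood below the median of long non-coding genes in vehicle mice. In CNO mice Neat1 at -0.64 and Kcnq1ot1 stood above it, and Meg3 at -0.73 and Malat1 at -0.76 were close to it. Rmrp stood below the lowest small non-coding gene, which was at -5.85 in CNO mice and -5.46 in vehicle mice. Of all genes tested, 4.94% in CNO mice and 4.35% in vehicle mice lay below Rian, 11.9% and 7.68% below Miat, 18.5% and 15.4% below Malat1, and 58.4% and 32.3% below Kcnq1ot1.

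**Figure D4:**
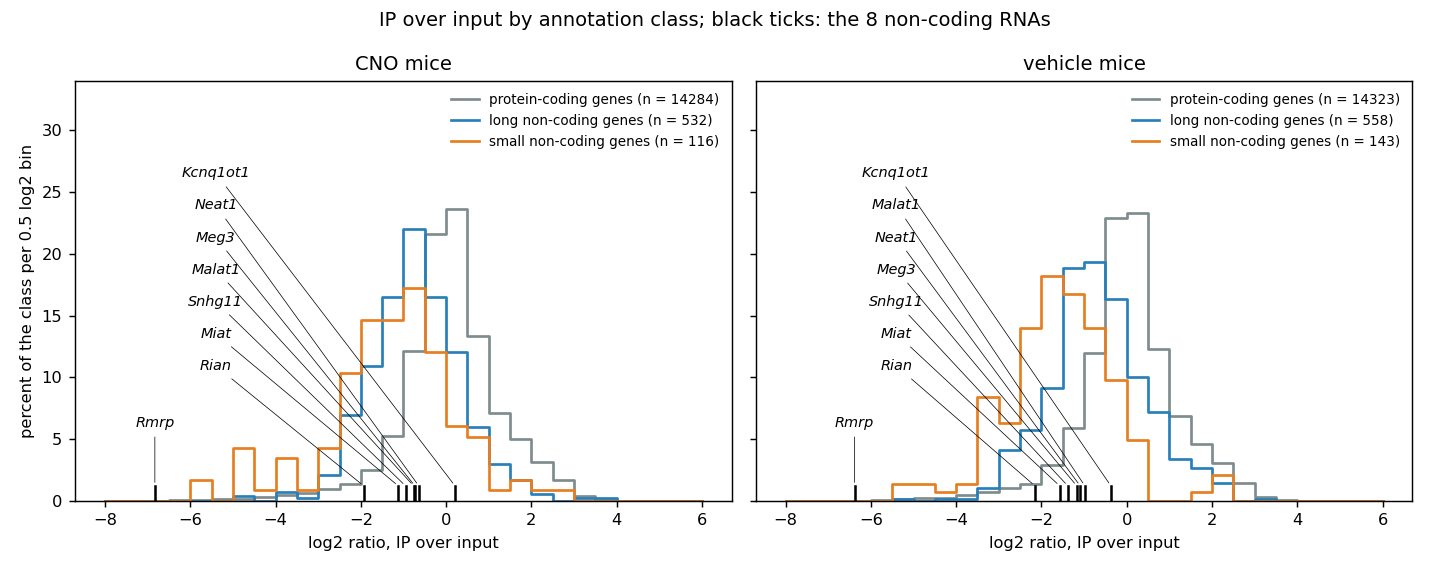
Share of the genes of each annotation class (percent per 0.5 log2 bin) by log2 ratio of IP over input, in CNO mice (left) and vehicle mice (right), with black ticks for the 8 non-coding RNAs. Long non-coding genes have medians of -0.71 and -0.70, protein-coding genes of 0.08 and 0.04, and Rmrp lies outside the bulk of every class.

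Related lists of long RNAs showed both directions. In a list of imprinted, antisense and X-linked long non-coding RNAs, 5 of 8 passed as lower in CNO mice and 6 of 8 in vehicle mice, and 0 as higher. Firre, an X-linked nuclear RNA, had -1.25 (SE 0.09) in CNO mice and -1.66 (SE 0.08) in vehicle mice, and Ftx, an RNA of the X-inactivation centre, -0.93 (SE 0.09) and -1.41 (SE 0.07). In the list of other long non-coding RNAs 9 of 13 were lower and 3 higher in both sets of mice, among the lowest Rmst at -1.52 (SE 0.21) in CNO mice. The highest was Trp53cor1, at 1.17 (SE 0.18) in CNO mice and 2.25 (SE 0.16) in vehicle mice. Messenger RNAs of paraspeckle proteins were split, with 6 of 13 higher and 3 lower in CNO mice and 6 higher and 5 lower in vehicle mice. Nuclear speckle and splicing factor genes were split too, with 6 of 15 higher and 4 lower in CNO mice and 5 higher and 7 lower in vehicle mice, the highest being Qk, a splicing regulator abundant in glia, at 1.78 in CNO mice and 1.75 in vehicle mice. Protein-coding neighbours of the imprinted members had 5 of 11 higher and 4 lower in CNO mice and 6 of 12 higher and 3 lower in vehicle mice.

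The next comparison asks what CNO did to these RNAs. In IP 4 of 8 RNAs rose with CNO, Kcnq1ot1, Neat1, Meg3 and Snhg11, by 0.28 to 0.55 on the log2 scale, and 0 fell. Whether these RNAs were bound to the captured ribosomes was not tested. In the whole lysate 0 of 8 were called, which does not show that their levels stayed the same. For Meg3 the input difference was -0.12 with an SE of 0.24, so a rise like its 0.31 in IP was not excluded. A rise limited to IP cannot be read from these calls. The direct test of that, given below, called 0 of 8 in its fit without the mouse. With the mouse as a block it called Neat1, Miat and Snhg11 higher, beside 6.25% of all genes tested. Of all genes tested in IP, 10.2% rose and 7.07% fell. The median log2 difference was 0.30 over the members and -0.01 over all genes. The members were listed for this contrast too, with earlier results of these data known. These counts, and the p-values of members below, are therefore a description. The share of called genes that rose was 59.2%, and became 38.6% with upper quartile scaling and 44.6% with plain totals. The 4 members that rose were called under both scalings too.

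Kcnq1ot1 and Neat1 had the largest rises, of nearly the same size. Kcnq1ot1 stood at 67.3, 69.8, 64.0 and 89.7 CPM in CNO IP, against 49.4, 55.4, 47.1 and 45.5 CPM in vehicle IP. Every CNO library was above every vehicle library, and the log2 difference was 0.55 (SE 0.11, adjusted p = 0.00802 by limma). Snhg11 rose by 0.28 (SE 0.05, adjusted p = 0.00655 by limma), with 183 to 203 CPM in CNO IP against 150 to 167 CPM in vehicle IP. Meg3 rose by 0.31 (SE 0.07, adjusted p = 0.0188 by limma), with 253 to 298 CPM in CNO IP against 201 to 248 CPM in vehicle IP. The groups of these 3 RNAs did not overlap, which held with the CNO libraries higher for 12.8% of all genes tested. The call of Meg3 was lost when CNO IP replicate 2 (adjusted p = 0.0540 by limma), replicate 2 of vehicle IP (0.0565) or its replicate 4 (0.0589) was left out, and in a fit of all 16 libraries (0.314).

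Neat1 rose by 0.54 (SE 0.14, adjusted p = 0.0298 by limma), with 34.1 to 41.2 CPM in CNO IP against 20.7 to 34.2 CPM in vehicle IP. Its groups overlapped, since vehicle replicate 5 stood just above the lowest CNO library. The call was lost without any 1 of 5 libraries, CNO IP replicates 3, 4 and 5 (adjusted p = 0.0662, 0.0847 and 0.0743 by limma) and vehicle IP replicates 2 and 4 (0.0717 and 0.0818). The remaining members did not pass. Malat1 differed by 0.29 (SE 0.10, adjusted p = 0.0902 by limma), with 3240 to 4194 CPM in CNO IP against 2646 to 3455 CPM in vehicle IP, and it passed when CNO IP replicate 2 (0.0488) or else vehicle IP replicate 5 (0.0432) was left out. Rian differed by 0.11 (SE 0.07, adjusted p = 0.394 by limma), and passed only without vehicle IP replicate 3, at 0.17 (0.0486). Rmrp differed by -0.22 (SE 0.17, adjusted p = 0.465 by limma) and Miat by 0.31 (SE 0.36, adjusted p = 0.657 by limma), whose CNO IP libraries ran over 13.4 to 43.5 CPM.

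**Figure D5:**
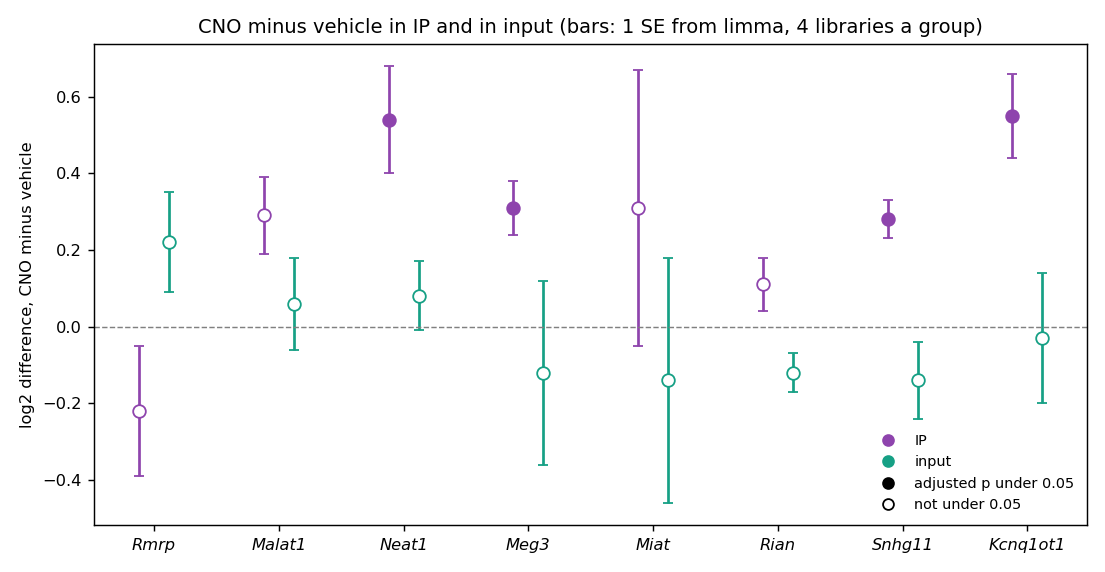
CNO minus vehicle (log2 CPM) of each non-coding RNA in IP (left point of each pair) and in input (right point), with bars of 1 SE from limma over 4 libraries a group. Filled points, the IP values of Neat1, Meg3, Snhg11 and Kcnq1ot1 (0.28 to 0.55), had an adjusted p under 0.05, and no input point did.

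Beside the rise there were few changes in cell type markers of the IP. Of the astrocyte markers, 2 of 10 fell, Gja1, a gap junction protein, by 0.30 (SE 0.08, adjusted p = 0.0247 by limma) and S100b by 0.22 (SE 0.06, adjusted p = 0.0461 by limma), and the summed level of the list was 28800 to 32300 CPM in CNO IP against 27700 to 33500 CPM in vehicle IP. Summed pan-neuronal markers stood at 4340 to 5660 CPM in CNO IP against 4200 to 5240 CPM in vehicle IP. Oligodendrocyte markers stood at 7860 to 10400 CPM against 5870 to 14100 CPM, and microglia markers at 31.7 to 42.1 CPM against 25.1 to 55.6 CPM. Ependymal markers stood at 150 to 187 CPM in CNO IP against 184 to 256 CPM in vehicle IP, and endothelial markers had medians of 12.3 CPM in CNO IP and 14.1 CPM in vehicle IP, and no marker of either list was called. No marker was at 0 in all libraries of a group. The part of these cells in the rise was not tested.

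The related lists differed in how many genes rose in IP with CNO. Of all genes, 10.2% rose and 7.07% fell. The lists were chosen with earlier results of these data known, so their counts beside these shares are a description. Malat1, the member found in speckles, did not pass. Of the nuclear speckle and splicing factor genes, 9 of 15 rose and 0 fell, with a median log2 difference of 0.29 against -0.01 over all genes. Among them were Pnn, a speckle protein, at 0.49 (SE 0.09, adjusted p = 0.00454 by limma), and the splicing factors Srsf5 at 0.48 (SE 0.05, adjusted p = 0.000127 by limma), Srsf6 at 0.37 (SE 0.04, adjusted p = 0.000137 by limma) and Srsf2 at 0.36 (SE 0.06, adjusted p = 0.00226 by limma). Of the paraspeckle protein genes 4 of 13 rose and 0 fell, including Sfpq, a core paraspeckle protein, at 0.37 (SE 0.06, adjusted p = 0.00192 by limma) and Cpsf6 at 0.39 (SE 0.05, adjusted p = 0.000395 by limma), with a list median of 0.06. Of the small nucleolar RNA hosts 3 of 14 rose, Snhg1, Snhg5 and Gas5, and Snhg18 fell (median 0.05). In the list of imprinted, antisense and X-linked long RNAs 2 of 8 rose, Ftx by 0.37 (SE 0.09, adjusted p = 0.0179 by limma) and Firre by 0.21 (SE 0.06, adjusted p = 0.0372 by limma). Both are X-linked, and no other RNA of that list was called. Of the proteins of RNase MRP and RNase P, 3 of 11 rose, Pop1, Rpp38 and Pop4, and Rpp14 fell.

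Long non-coding genes as a class did not share this direction. Without the members, 20 of 510 tested in IP rose and 48 fell, with a median of -0.14. In the list of other long non-coding RNAs Mir22hg, the host of a microRNA, rose by 1.07 (SE 0.11, adjusted p = 0.000176 by limma). Trp53cor1 (-1.68, SE 0.14, adjusted p = 3.99e-05 by limma) and Pantr1 (-0.61, SE 0.09, adjusted p = 0.00156 by limma) fell. Of 11 protein-coding genes near the imprinted members, among them Cd81 and Nap1l4 beside Kcnq1ot1, 0 passed by limma and 0 by limma-voom, and 2 had an unadjusted p under 0.05. None of the 4 RNAs of the structured list tested, Rpph1, Rnu11, Scarna2 and Rn45s, was called by either tool or at an unadjusted p under 0.05.

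In input the log2 differences of the members with CNO were small. Rmrp had 0.22 (SE 0.13, adjusted p = 0.611 by limma), with 1941 to 2817 CPM in CNO input against 1705 to 2244 CPM in vehicle input. Snhg11 had -0.14 (SE 0.10, adjusted p = 0.708 by limma) and Rian -0.12 (SE 0.05, adjusted p = 0.508 by limma). The other 5 lay between -0.14 and 0.08, with adjusted p between 0.845 and 0.978 by limma. None of the 8 was called by limma or limma-voom, and none had an unadjusted p under 0.05 by either. Of all genes tested in input 0.998% were called, and groups did not overlap for 3.22% with CNO higher and 4.03% with CNO lower, against 0 of 8 members. CNO input replicate 2 held the highest level of its group for Malat1 (7795 CPM, others 5611 to 6535), Meg3 (774 CPM, others 328 to 413), Snhg11 (453 CPM, others 320 to 356) and Kcnq1ot1 (89.5 CPM, others 51.7 to 59.5). The SD of log2 CPM of Meg3 was 0.53 in CNO input and 0.11 in vehicle input.

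Whether CNO acted differently in IP and in input was tested as a difference of the 2 CNO effects over all 16 libraries. The difference was positive for 7 of 8 members, at 0.22 to 0.58, and negative for Rmrp at -0.44 (SE 0.23, adjusted p = 0.395 by limma). None of the 8 passed by limma or limma-voom, 4 had an unadjusted p under 0.05 (Neat1, Rian, Snhg11 and Kcnq1ot1), and 4.18% of all genes tested were called higher. Snhg11 was nearest to the threshold at 0.43 (SE 0.12, adjusted p = 0.0502 by limma), followed by Kcnq1ot1 at 0.58 (SE 0.21, adjusted p = 0.164), Neat1 at 0.45 (SE 0.18, adjusted p = 0.208) and Rian at 0.22 (SE 0.09, adjusted p = 0.223). Meg3 had 0.44 (SE 0.26, adjusted p = 0.507 by limma), Miat 0.45 (SE 0.51, adjusted p = 0.843) and Malat1 0.23 (SE 0.17, adjusted p = 0.657). The share of called genes that were higher was 88.0%, against 72.5% with upper quartile scaling and 77.6% with plain totals. Of the related lists, 4 of 15 speckle and splicing factor genes were called higher, led by Srsf5 at 0.68. So were 2 of 13 paraspeckle protein genes, Sfpq at 0.48 and Cpsf6 at 0.42. These list counts are a description too.

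IP and input of a mouse come from the same striatum, and with the mouse as a block 3 members passed as higher. Miat had 0.45 (SE 0.09, adjusted p = 0.00604 by limma), Neat1 0.45 (SE 0.08, adjusted p = 0.00386 by limma) and Snhg11 0.43 (SE 0.10, adjusted p = 0.0213 by limma). In that fit 6.25% of all genes tested were called higher. For Miat the block removed the differences between mice described above: its IP level was 41.9 to 54.3% of input in CNO mice and 31.6 to 35.4% in vehicle mice, without overlap. Neat1 likewise stood at 56.7 to 69.3% of input in CNO mice and 42.9 to 52.2% in vehicle mice, and Snhg11 at 41.0 to 58.8% in CNO mice and 36.7 to 39.9% in vehicle mice. Meg3 and Kcnq1ot1 were not called in that fit (adjusted p = 0.321 and 0.178 by limma), and their within-mouse ratios in CNO mice spread over 36.2 to 77.0% and 75.2 to 164%, the lowest being replicate 2 in both. Without CNO input replicate 2 and without the block, Meg3 (0.69, adjusted p = 0.00366 by limma), Kcnq1ot1 (0.76, adjusted p = 0.00694) and Snhg11 (0.53, adjusted p = 0.000700) were called.

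The starts of the 3 RNAs that rose without overlap are shown because these RNAs moved together within groups as well. Over deviations from the 4 group means, Pearson's r over 16 libraries was 0.921 between Snhg11 and Kcnq1ot1, 0.906 between Snhg11 and Meg3 and 0.864 between Meg3 and Kcnq1ot1. These are descriptions of libraries that share mice and scaling, and CNO input replicate 2 is high in all 3. The windows run from 250 bases before to 50 bases after the RefSeq start on GRCm38.p6, where 6 of the 8 members have an entry. Capitals mark TGACG, the core of the CREB site, on either strand, and TGANTCA, the AP-1 site, on either strand, would be marked too.
Meg3 (chr12:109540746-109541045, plus strand): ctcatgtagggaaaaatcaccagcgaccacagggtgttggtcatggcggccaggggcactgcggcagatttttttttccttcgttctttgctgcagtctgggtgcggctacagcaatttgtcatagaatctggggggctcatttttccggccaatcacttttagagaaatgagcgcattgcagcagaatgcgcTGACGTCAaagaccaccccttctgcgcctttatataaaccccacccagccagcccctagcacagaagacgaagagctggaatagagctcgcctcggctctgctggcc
Snhg11 (chr2:158375463-158375762, plus strand): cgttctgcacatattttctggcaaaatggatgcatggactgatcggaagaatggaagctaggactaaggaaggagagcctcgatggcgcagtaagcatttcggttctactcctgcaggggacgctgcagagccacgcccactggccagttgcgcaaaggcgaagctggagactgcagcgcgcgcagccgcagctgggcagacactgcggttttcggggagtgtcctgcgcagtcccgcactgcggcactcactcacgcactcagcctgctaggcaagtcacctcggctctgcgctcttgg
Kcnq1ot1 (chr7:143296498-143296797, minus strand): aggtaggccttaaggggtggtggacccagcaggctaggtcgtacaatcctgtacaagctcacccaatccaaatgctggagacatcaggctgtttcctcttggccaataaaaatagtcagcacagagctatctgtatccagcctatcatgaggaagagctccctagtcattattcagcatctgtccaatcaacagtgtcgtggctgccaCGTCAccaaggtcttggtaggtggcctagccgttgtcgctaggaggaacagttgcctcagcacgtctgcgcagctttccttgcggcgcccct
The full palindrome TGACGTCA, which contains TGACG on both strands, was found once in the Meg3 window, beginning 57 bases before the start, and in none of the others, nor in another RefSeq start of Meg3. It occurs in 1.79% of 32851 promoter windows of the same length. TGACG occurs in 20.8% of them, with 1 match in Kcnq1ot1, 42 bases before the start, 0 in Snhg11, and 3 in Malat1. TGANTCA occurs in 7.81% and was found in none of the 6 members. A match describes letters and not a site in use.

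The genes whose levels followed the members most closely over the 16 libraries differed between members. Rmrp was closest to Dennd1b (Pearson's r 0.998), Mrpl57 (0.997) and Rpph1 (0.997). Rian was closest to AF357359, the small nucleolar RNA gene described above, and equally to Parp6 and Spopl (0.996 each). Malat1 was closest to Mdm4 (0.981), Neat1 to Olfml3 (0.980), Miat to Syt7 (0.978), Snhg11 to Ftx (0.985) and Meg3 to Snhg11 (0.950). Kcnq1ot1 had the loosest match, Tet2 at 0.856. These values run over 10768 genes with a mean of at least 3 log2 CPM, and the gap between IP and input is part of them. Over deviations from the group means the closest were Lbh for Neat1 (0.968), Sobp for Miat (0.966), D7Ertd715e for Rian (0.961), Iqsec1 for Kcnq1ot1 (0.955), Ccdc82 for Snhg11 (0.933), Ccnk for Malat1 (0.892) and Trappc2l for Rmrp (0.855).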

How the data were processed

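RNA of 16 libraries from striatum was sequenced after cleanup on RNeasy Micro Plus columns with removal of DNA and the Nugen Ovation RNA-Seq System V2 with enrichment of mRNA, per the labels' protocols. Per the submitters' processing notes, bcl2fastq 2.17, STAR, HTSeq, limma and mm10 were used. Neither the annotation nor the strand setting of the counting is named in a source used here. The authors deposited log2 CPM per gene, which holds a prior count of 0.25 reads and effective library sizes that differ from the read totals. Whole reads could be recovered from all values within 0.01 read, which gave the read totals. Of 17098 lines, 1 identical duplicate was dropped. Counts of reads without molecular identifiers are not independent molecules.

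The deposited log2 values were tested with limma 3.58.1 in R 4.3.3 (linear fits, moderated with a trend and robustly), with Benjamini-Hochberg adjustment over all genes tested and a threshold of 0.05. The filter kept genes with a total of 15 or more reads whose CPM in 4 or more libraries reached that of 10 reads in the median library. Each contrast used its own 8 libraries, and the difference of CNO effects all 16. The script was tested on simulated data. Over genes with a mean of at least 3 log2 CPM, deviations of the IP and input libraries of 1 mouse from their group means were correlated. The values were 0.38, 0.46, 0.60 and 0.70 in CNO mice and 0.41, 0.67, 0.27 and 0.63 in vehicle mice. Each was highest with its own number, and the titles give both libraries 1 mouse code. All members are named, along with up to 4 called genes of each related list (largest log2 difference, at least 1 CPM) and the genes closest by Pearson's r. Cd81 and Nap1l4 in the CNO comparison were named after their values were seen. Members and lists were chosen with earlier results of these data known. Alternatives were limma-voom on recovered reads, plain totals, upper quartile scaling, no filter, log2(CPM + 1), no trend, all 16 libraries in 1 fit, replicate blocks and leaving out each library. Coordinates are GENCODE vM21, and promoter windows are RefSeq. The gene closest to Meg3 over deviations from the group means and 1 cortical marker are not reported here.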

Additional observations from a re-analysis of the deposited data

Results flagged for a closer look

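With 4 libraries a group, 32 groups of member values were looked at for a library far from the others, where chance flags about 1 in 20. Snhg11 in CNO IP stood at 7.67 log2 CPM in replicate 5, while the others stood at 7.51 to 7.54. Kcnq1ot1 in vehicle input stood at 5.78 log2 CPM in replicate 4, while the others stood at 6.04 to 6.09. The causes were not tested.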

How the results depend on the processing

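Kcnq1ot1 in IP against input of CNO mice (0.21) reversed to -0.10 with plain read totals and -0.02 with upper quartile scaling. Leaving out 1 library in turn shifted the CNO difference in input over -0.21 to 0.06 for Kcnq1ot1, -0.03 to 0.12 for Malat1, -0.38 to 0.03 for Meg3 and -0.37 to 0.08 for Miat. Genes lower with CNO in IP numbered 1102, against 1992 with upper quartile scaling, 717 with the number of the titles as a block and 596 to 1213 with 1 library left out, the lowest being 596 (vehicle IP replicate 2 left out), 716 (vehicle IP replicate 4) and 726 (CNO IP replicate 4). In input 129 genes were higher (196 in the fit of 16 libraries, 85 to 155 with 1 library left out) and 29 lower (105 in the fit of 16 libraries, 4 to 27 with 1 library left out). The difference of CNO effects was lower for 93 genes, 165 with plain totals, 203 with upper quartile scaling, 222 with the mouse as a block and 45 to 109 with 1 library left out. The causes were not tested.

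The replicate numbers do not pair CNO with vehicle mice, as same-numbered deviations correlated by -0.39 to 0.11 in IP and -0.61 to 0.06 in input. With that number as a replicate block, 1237 genes were higher and 717 lower in IP (1598 and 1102 without it), 95 higher and 7 lower in input, and Meg3 in IP had an adjusted p of 0.0830 by limma. The mouse block changed no member's call other than the interaction calls of Neat1, Miat and Snhg11. Snhg11 passed for the difference of CNO effects with log2(CPM + 1) (0.42, adjusted p = 0.0491 by limma) and without vehicle IP replicate 3 (0.46, 0.0417), as did Rian without that library (0.29, 0.0234) and Neat1 without vehicle IP replicate 5 (0.58, 0.0264). The 7 small RNAs that GENCODE annotates inside Rian had means under 1 CPM, unlike the members, and what keeps them low was not tested. The IP minus input values of members moved by more than 1 SD between replicates in 9 cases in CNO mice and 11 in vehicle mice, all under the 2 other scalings, with no change of sign other than that of Kcnq1ot1.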
